A study of Bos taurus with 8 samples.

Results

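Amino acid synthesis genes and the genes for tRNA charging were followed in primary bovine granulosa cells cultured with non-esterified fatty acids (NEFA) or with bovine serum albumin (BSA). The set was given as 33 gene symbols, and 31 of them had a probe set that the platform annotation assigns to that gene alone, out of 18010 genes measured in this way. CTH and NARS1 are left out, because their probe sets carry a second symbol. Where a gene had more than 1 probe set, the one to use was chosen by its mean level over all 8 arrays, which mattered for MTHFD1L alone; the treatment difference was not used. The genes were grouped as serine synthesis (PHGDH, PSAT1, PSPH), one-carbon and glycine metabolism (SHMT1, SHMT2, MTHFD1, MTHFD2, MTHFD1L, ALDH1L2) and proline synthesis (ALDH18A1, PYCR1). The other groups were a mixed group of asparagine synthetase, transaminases and cystathionine synthase (ASNS, GPT2, GOT1, CBS), and 16 measured aminoacyl-tRNA synthetases.

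All 8 cultures were serum-free alpha-MEM with FSH, IGF-1 and androstenedione. Medium changes on days 2 and 4 brought in BSA (4 arrays) or NEFA (4 arrays), and RNA was taken on day 6. The sources used here do not give the dose or make-up of the fatty acid mix. Nor do they say whether a replicate is an animal, a pool or a dish, so the p-values reflect the spread among these 8 samples alone, and that spread may be technical. Levels are log2 values from RMA, which makes the arrays' distributions alike. Each level is given as mean ± SD (SD, n = 4), each difference is NEFA minus BSA on the log2 scale, and a gene passed when its Benjamini-Hochberg adjusted p over all 24415 probe sets was under 0.05 in limma. A level can be compared between arrays for 1 gene, but not between genes, since probe sets differ in brightness. In such bulk RNA, fewer cells that express a gene and less of its RNA per cell cannot be told apart.

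Serine is made from the glycolytic intermediate 3-phosphoglycerate, and serine in turn feeds folate-bound carbon units into nucleotide and methyl group synthesis, with separate enzymes in cytosol and mitochondria. Proline is made from glutamate, asparagine from aspartate, and alanine and aspartate arise by transamination. Aminoacyl-tRNA synthetases join each amino acid to its tRNA for translation. In mammalian cells many of these genes are targets of the transcription factor ATF4, whose translation rises when amino acids are short or eIF2 is phosphorylated.

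With NEFA, PYCR1, the mitochondrial reductase that completes proline synthesis, fell 1.68-fold, and CBS, which joins homocysteine and serine to cystathionine, fell 1.47-fold. No gene of the set rose, and 29 of 31 did not pass. The fall of 2 of 31 genes stands beside 1.35% of all genes that were lower and 0.999% that were higher by the same rule. Values were lower for 28 of 31 genes, where 48.5% of all genes had lower values, and the median difference was -0.13 against 0.005 over all genes. At an unadjusted p under 0.05, 12 of 31 were lower and 0 higher, compared with 8.92% and 7.9% of all genes. The groups did not overlap, with all NEFA arrays below all BSA arrays, for 9 of 31 genes and 7.2% of all genes. Because the set was put together with earlier results of these data known, these counts describe it and are not independent evidence of a direction.

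**Figure D1:**
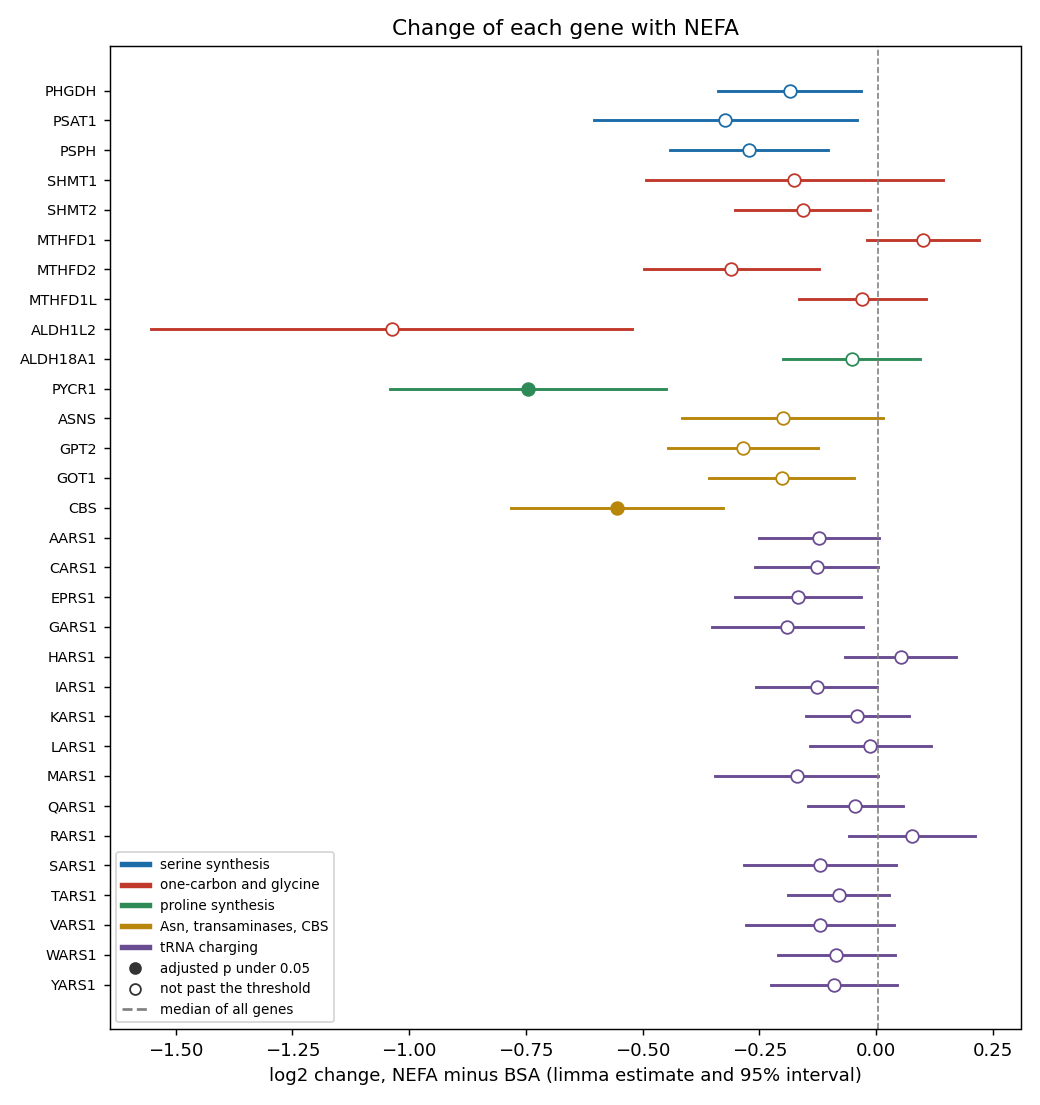
Log2 difference, NEFA minus BSA, of the 31 genes with the 95% interval of limma, not adjusted for the number of genes; colours mark the gene groups, filled points passed the adjusted threshold and the dashed line is the median of all genes at 0.005. PYCR1 and CBS are the 2 filled points, ALDH1L2 lies furthest left with the widest interval, and the tRNA synthetases lie between -0.19 and 0.08.

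Of the 2 proline enzymes, PYCR1 fell and ALDH18A1 did not pass; the difference between them was not tested. PYCR1 read 7.66, 7.72, 8.03 and 7.91 on BSA arrays 1 to 4, against 6.86, 7.38, 7.17 and 6.93 on NEFA arrays 1 to 4. All 4 NEFA arrays lay below all 4 BSA arrays, with NEFA 2 nearest to them. The mean went from 7.83 ± 0.17 to 7.08 ± 0.24, a difference of -0.74 (SE 0.13; limma, adjusted p = 0.027). ALDH18A1, the synthase that starts the path from glutamate, stood at 8.42 ± 0.09 with BSA and 8.37 ± 0.07 with NEFA, and its groups overlapped (difference -0.05, 95% interval -0.20 to 0.09; limma, adjusted p = 0.74). The call of PYCR1 needed most of the arrays: it held without BSA 1 and without NEFA 2, but ended without BSA 2, 3 or 4 and without NEFA 1, 3 or 4, at adjusted p up to 0.081 in limma, while its difference stayed between -0.84 and -0.67.

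CBS read 6.01, 6.06, 6.42 and 6.14 on BSA arrays 1 to 4, against 5.58, 5.75, 5.60 and 5.48 on NEFA arrays 1 to 4. The groups did not overlap, and BSA 3 was the highest array. The mean went from 6.16 ± 0.18 to 5.60 ± 0.11, a difference of -0.56 (SE 0.10; limma, adjusted p = 0.031). It still passed without BSA 1 or without BSA 3, and ended without BSA 2 or 4 and without any one of the 4 NEFA arrays, at adjusted p up to 0.088 in limma, with differences between -0.60 and -0.47. Also in the mixed group, GPT2, the mitochondrial alanine transaminase, went from 6.87 ± 0.05 to 6.59 ± 0.12 (difference -0.28; limma, adjusted p = 0.088), and GOT1, the cytosolic aspartate transaminase, from 8.10 ± 0.02 to 7.90 ± 0.13 (difference -0.20; limma, adjusted p = 0.19). Neither passed, although their groups did not overlap.

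ASNS, which makes asparagine from aspartate and glutamine, read 8.92, 8.93, 9.10 and 8.97 on BSA arrays 1 to 4, against 8.53, 8.94, 8.89 and 8.76 on NEFA arrays 1 to 4. NEFA 1 was the lowest array, while NEFA 2 lay within the range of the BSA arrays. The difference of -0.20 (95% interval -0.42 to 0.02) did not pass (limma, adjusted p = 0.35), and it ranged from -0.25 to -0.12 with single arrays left out.

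**Figure D2:**
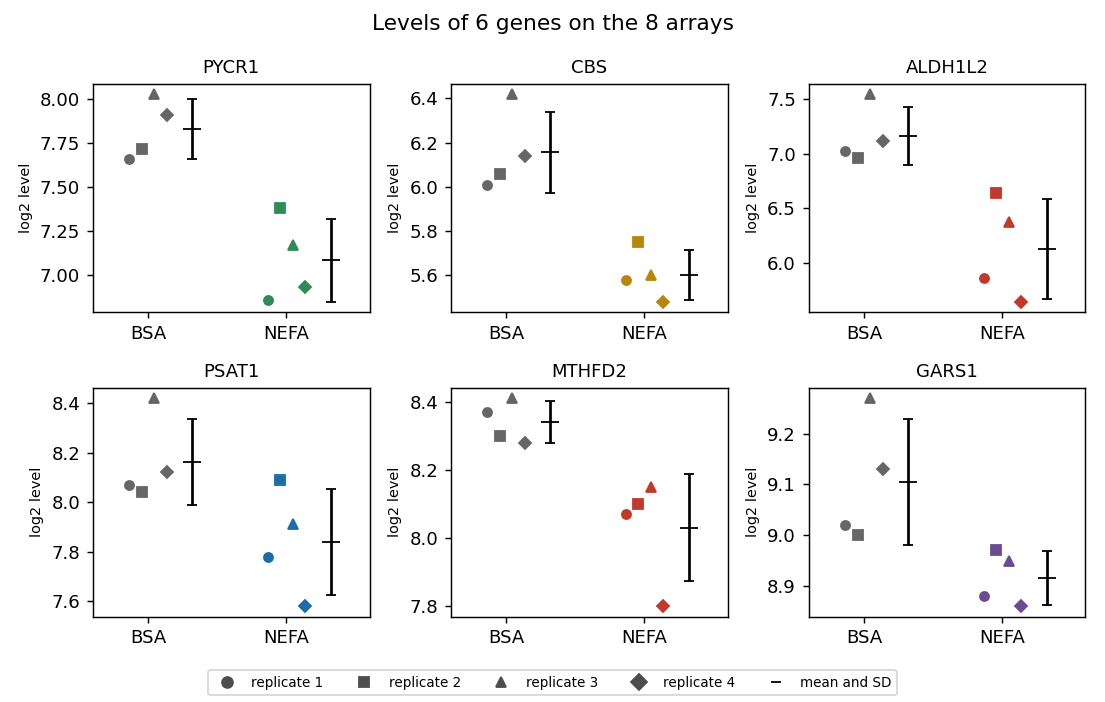
Log2 level of PYCR1, CBS, ALDH1L2, PSAT1, MTHFD2 and GARS1 on each array, with a symbol for each replicate number and the mean and SD of 4 arrays beside the points; each panel has its own axis, which does not start at 0. The groups overlap for PSAT1 alone among these 6 genes, and NEFA 4 is the lowest array for CBS, ALDH1L2, PSAT1, MTHFD2 and GARS1.

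All 3 serine synthesis genes had lower values with NEFA and none passed. PSAT1, the transaminase of the middle step, read 8.07, 8.04, 8.42 and 8.12 on BSA arrays 1 to 4, against 7.78, 8.09, 7.91 and 7.58 on NEFA arrays 1 to 4. NEFA 2 lay among the BSA arrays, so the groups overlapped. The difference was -0.32 (8.16 ± 0.17 to 7.84 ± 0.21; SE 0.12; limma, adjusted p = 0.25).

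PSPH, the phosphatase of the last step, read 7.41, 7.53, 7.66 and 7.42 on BSA arrays 1 to 4, against 7.21, 7.25, 7.34 and 7.13 on NEFA arrays 1 to 4. Its groups did not overlap, but the gap from 7.34 to 7.41 was small, and the difference of -0.27 (SE 0.07) did not pass (limma, adjusted p = 0.12). PHGDH, the dehydrogenase that commits 3-phosphoglycerate to serine, read 8.29, 8.35, 8.39 and 8.23 on BSA arrays 1 to 4, against 8.02, 8.26, 8.15 and 8.09 on NEFA arrays 1 to 4. Only NEFA 2 reached into the BSA range, and the difference was -0.18 (SE 0.07; limma, adjusted p = 0.22). The median difference of the serine genes was -0.27.

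Among the 6 folate enzymes that carry single carbons, 5 had lower values and 1 a higher value, and none passed. Over all genes, 48.5% had lower values. ALDH1L2, a mitochondrial enzyme that oxidises 10-formyl-tetrahydrofolate and yields NADPH, read 7.03, 6.96, 7.55 and 7.12 on BSA arrays 1 to 4, against 5.86, 6.64, 6.37 and 5.64 on NEFA arrays 1 to 4. The groups did not overlap, and the NEFA arrays spread over a range wider than the gap between the groups. The mean difference was -1.04, or 2.05-fold lower (7.17 ± 0.26 to 6.13 ± 0.46; SE 0.23), which is more than that of any other gene of the set but missed the threshold (limma, adjusted p = 0.060). It passed without NEFA 2, at -1.21 (limma, adjusted p = 0.049), and over the alternatives other than the replicate block its adjusted p ran from 0.032 to 0.14.

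MTHFD2, the mitochondrial dehydrogenase and cyclohydrolase, read 8.37, 8.30, 8.41 and 8.28 on BSA arrays 1 to 4, against 8.07, 8.10, 8.15 and 7.80 on NEFA arrays 1 to 4. Each NEFA array was below each BSA array, and the difference was -0.31 (SE 0.08; limma, adjusted p = 0.11). SHMT2, which splits serine to glycine in mitochondria, read 9.30, 9.23, 9.35 and 9.16 on BSA arrays 1 to 4, against 9.06, 9.17, 9.16 and 9.02 on NEFA arrays 1 to 4. Its groups overlapped narrowly, with BSA 4 at 9.16 and NEFA 2 at 9.17, and the difference was -0.16 (SE 0.06; limma, adjusted p = 0.27).

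MTHFD1, the cytosolic enzyme for the same interconversions, had a value of 7.02 ± 0.03 with BSA and 7.12 ± 0.07 with NEFA, a difference of 0.10 (95% interval -0.02 to 0.22; limma, adjusted p = 0.40). The interval of MTHFD2, -0.50 to -0.12, lies below that of MTHFD1, but the difference between these genes was not tested. SHMT1, the cytosolic counterpart of SHMT2, was dim, at 3.11 ± 0.21 and 2.94 ± 0.24, so its interval of -0.49 to 0.14 is wide. MTHFD1L, which releases formate from mitochondria, gave different values by probe set. The brighter probe set differed by -0.03 (limma, adjusted p = 0.85), and the dimmer by -0.26 (6.97 ± 0.06 to 6.71 ± 0.24; limma, adjusted p = 0.30), where NEFA 4 at 6.36 was far below the other NEFA arrays at 6.80 to 6.88. Neither passed.

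None of the 16 measured aminoacyl-tRNA synthetases passed in limma; 14 had lower values, 2 were lower and 0 higher at an unadjusted p under 0.05, and the median difference was -0.10. The differences were small and ran from -0.19 to 0.08. GARS1, the glycyl-tRNA synthetase, read 9.02, 9.0, 9.27 and 9.13 on BSA arrays 1 to 4, against 8.88, 8.97, 8.95 and 8.86 on NEFA arrays 1 to 4. Its groups were just separate, with BSA 2 at 9.0 and NEFA 2 at 8.97, and the difference of -0.19 (SE 0.07) did not pass (limma, adjusted p = 0.23).

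EPRS1, the synthetase that charges both glutamate and proline tRNAs, went from 10.23 ± 0.08 to 10.06 ± 0.06 without overlap (difference -0.17; limma, adjusted p = 0.21). MARS1, for methionine, differed by -0.17 (7.90 ± 0.05 to 7.73 ± 0.14), IARS1, for isoleucine, by -0.13 (8.80 ± 0.06 to 8.67 ± 0.06), and CARS1, for cysteine, by -0.13 (7.67 ± 0.07 to 7.54 ± 0.06). AARS1, SARS1, VARS1, YARS1, WARS1 and TARS1, for alanine, serine, valine, tyrosine, tryptophan and threonine, differed by -0.12, -0.12, -0.12, -0.09, -0.09 and -0.08. These 9 genes all had overlapping groups.

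Differences nearest to 0 were those of QARS1 for glutamine (-0.04), KARS1 for lysine (-0.04) and LARS1 for leucine (-0.01, 95% interval -0.14 to 0.12). The exceptions in direction were HARS1, for histidine, at 0.05 (7.47 ± 0.07 to 7.52 ± 0.03; limma, adjusted p = 0.68) and RARS1, for arginine, at 0.08 (8.13 ± 0.10 to 8.21 ± 0.02; limma, adjusted p = 0.57). KARS1, QARS1, LARS1, MARS1, IARS1, EPRS1 and RARS1 are, as background, among the enzymes of the multi-synthetase complex of animal cells, and within that complex the differences ran from -0.17 to 0.08.

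**Figure D3:**
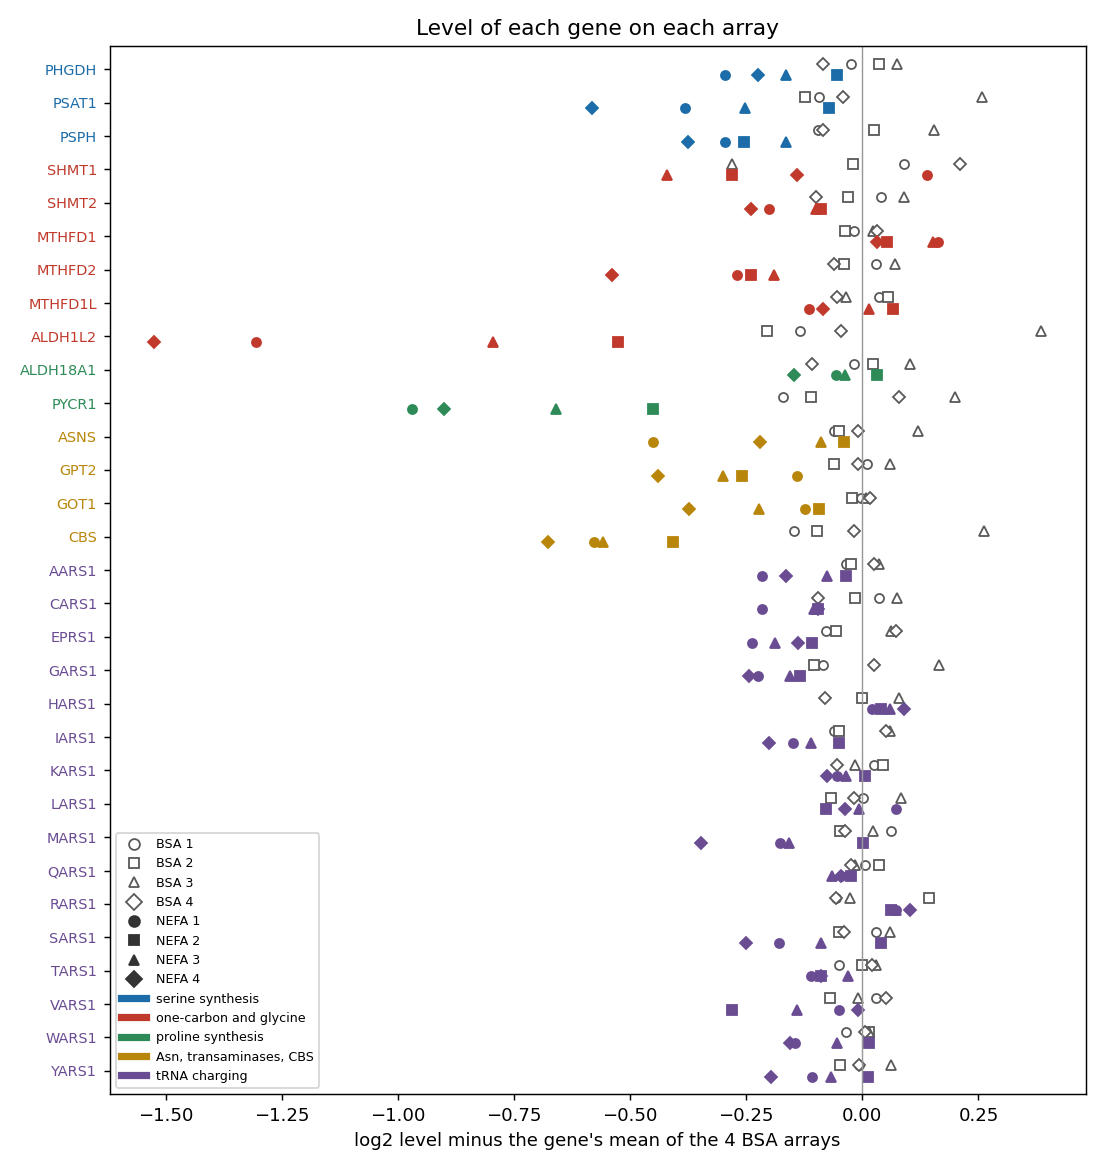
Log2 level of each of the 31 genes on each array, minus that gene's mean of the 4 BSA arrays; open symbols are BSA arrays, filled symbols NEFA arrays, the symbol shape is the replicate number and the colour is the gene group. All NEFA arrays lie below all BSA arrays for 9 genes, of which ALDH1L2, PYCR1 and CBS have the largest mean differences. Most filled symbols of the tRNA synthetases lie a little below 0.

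The spread within groups was shared by many of these genes. NEFA 2 alone was the highest NEFA array for 20 of 31 genes, against 23.6% of all genes, and NEFA 4 alone was the lowest for 17 of 31, against 26.9% of all genes. BSA 3 alone was the highest BSA array for 20 of 31 genes, against 21.8% of all genes. Taken per array, the median over the 15 enzymes other than synthetases of the level minus its BSA mean was -0.27, -0.09, -0.19 and -0.37 on NEFA 1, 2, 3 and 4, and from -0.04 to 0.09 on the BSA arrays. The same value over the 16 synthetases was -0.13, -0.03, -0.07 and -0.12 on NEFA 1, 2, 3 and 4, and from -0.04 to 0.05 on the BSA arrays. On NEFA 2 the synthetases were thus inside the range of the BSA arrays, and over all genes this value stayed between -0.0025 and 0.0075.

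**Figure D4:**
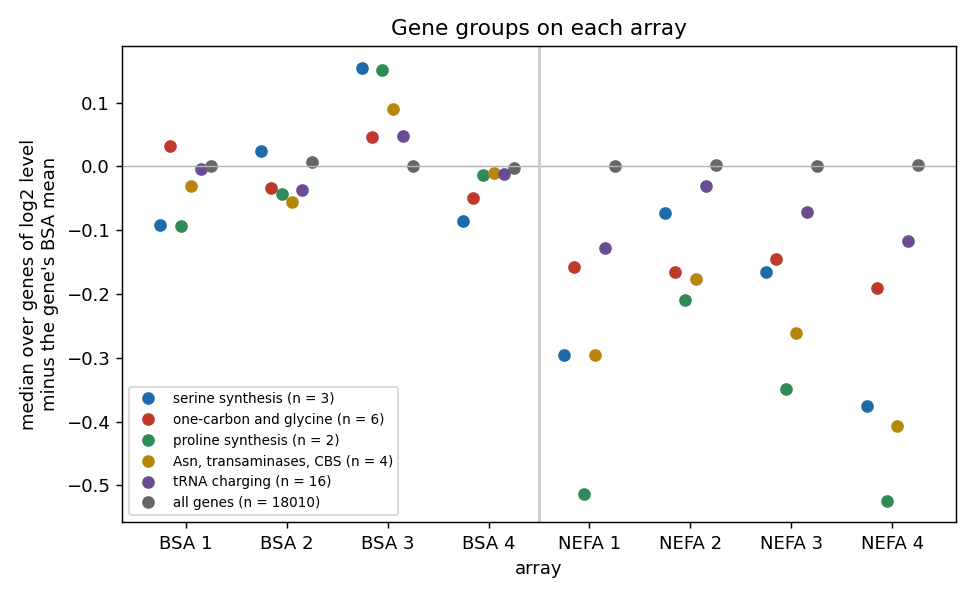
Median over the genes of a group of the log2 level minus the gene's mean of the 4 BSA arrays, for each of the 8 arrays (points are shifted sideways by group). On NEFA 1, 3 and 4 every gene group lies below all its BSA values; NEFA 2 is the highest NEFA array in the serine, proline, mixed and tRNA charging groups, and all genes stay near 0.

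By group, the median difference was -0.27 for the 3 serine genes, -0.17 for the 6 one-carbon genes, -0.40 for the 2 proline genes, -0.24 for the mixed group of 4, and -0.10 for the 16 synthetases. These are descriptions of groups of 2 to 16 genes, and their order was not tested. The proline value is the midpoint between a gene at -0.74 and a gene at -0.05. At an unadjusted p under 0.05, 10 of the 15 enzymes other than synthetases and 2 of the 16 synthetases were lower, beside 8.92% of all genes. The synthetases are thus near the share of all genes by this count. Values of any size were lower for 14 of the 16, however, where 48.5% of all genes had lower values. The difference between these sets of genes was not tested.

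Related genes outside the set were read from lists that had also been made with earlier results known. The counts of these lists stand beside 8.92% of all genes lower and 7.9% higher at an unadjusted p under 0.05 in limma. Lower values of any size were found for 48.5% of all genes. Of 4 measured further cytosolic charging genes, none passed in limma (2 were lower and 0 higher at an unadjusted p under 0.05), and the smallest p was that of FARSA, a subunit for phenylalanine, at -0.14 (limma, adjusted p = 0.17). Of 15 measured mitochondrial synthetases none passed (1 lower and 0 higher at an unadjusted p under 0.05 in limma), with MARS2, for methionine, at -0.15 (limma, adjusted p = 0.30) and a median difference of -0.04. Of 12 measured further enzymes of amino acid metabolism none passed (4 lower and 0 higher at an unadjusted p under 0.05 in limma), 10 had lower values, and the smallest p was that of GOT2, the mitochondrial aspartate transaminase, from 10.19 ± 0.04 to 10.01 ± 0.01 (limma, adjusted p = 0.091).

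Of 21 measured further genes of the folate, glycine cleavage and methionine cycles, 1 rose, none fell and 20 did not pass. Over all genes, 0.999% rose by the same rule. At an unadjusted p under 0.05 in limma, 1 of the 21 was lower and 3 were higher. The gene that rose was MTR, the methionine synthase, which takes a methyl group from folate to homocysteine and so draws on the same substrate as CBS. MTR read 6.00, 6.17, 6.12 and 6.15 on BSA arrays 1 to 4, against 6.58, 6.46, 6.54 and 6.37 on NEFA arrays 1 to 4, with every NEFA array above every BSA array. Its difference was 0.38 (SE 0.07; limma, adjusted p = 0.028). That call ended when BSA 1, 2, 3 or 4 or NEFA 1, 2 or 3 was left out, at adjusted p up to 0.088, and with arrays centred on their medians (0.34; limma, adjusted p = 0.056). GLDC, the glycine decarboxylase, chosen after its values were seen, went from 6.40 ± 0.17 to 6.82 ± 0.05 and just missed the threshold (limma, adjusted p = 0.051).

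Of 22 measured regulators and targets of the amino acid and integrated stress response none passed (6 lower and 1 higher at an unadjusted p under 0.05 in limma), and the median difference was -0.08. By the same count, 8.92% of all genes were lower and 7.9% higher. ATF4 read 10.06, 10.11, 10.22 and 10.22 on BSA arrays 1 to 4, against 9.84, 9.91, 9.95 and 9.64 on NEFA arrays 1 to 4. Its groups did not overlap and its difference was -0.32 (SE 0.08), which did not pass (limma, adjusted p = 0.092). These values are of ATF4 mRNA, and its protein was not measured.

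Other genes of this list had values in both directions. TRIB3, a pseudokinase, was dim and differed by -0.29 (3.96 ± 0.16 to 3.66 ± 0.24; limma, adjusted p = 0.31), DDIT3, a transcription factor of the stress response, differed by 0.07 (limma, adjusted p = 0.71), and CHAC1, which degrades glutathione and was chosen after its values were seen, by -0.93 (6.15 ± 0.21 to 5.23 ± 0.46; limma, adjusted p = 0.073). EIF2AK2, the kinase PKR, which is also an interferon-induced gene, had the smallest p of the list, with 8.17 ± 0.18 and 8.74 ± 0.20 (limma, adjusted p = 0.056). EIF2AK4, the kinase GCN2 that senses uncharged tRNA, differed by 0.01 (95% interval -0.09 to 0.12; limma, adjusted p = 0.93) and was likewise chosen after its values were seen. Of 10 amino acid carriers, SLC1A4, which carries serine and alanine, fell by 0.89 (7.12 ± 0.08 to 6.24 ± 0.29; limma, adjusted p = 0.016) and SLC3A2, the common heavy chain of several carriers, fell by 0.40 (8.63 ± 0.08 to 8.24 ± 0.05; limma, adjusted p = 0.016), none rose and 8 did not pass. By the same rule, 1.35% of all genes fell and 0.999% rose. All 10 carriers had lower values, where 48.5% of all genes did, with a median difference of -0.49. At an unadjusted p under 0.05 in limma, 8 of the 10 were lower and 0 higher, beside 8.92% and 7.9% of all genes. The SLC1A4 call ended without BSA 2, BSA 3 or NEFA 1, and that of SLC3A2 without NEFA 1, at adjusted p up to 0.057.

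**Figure D5:**
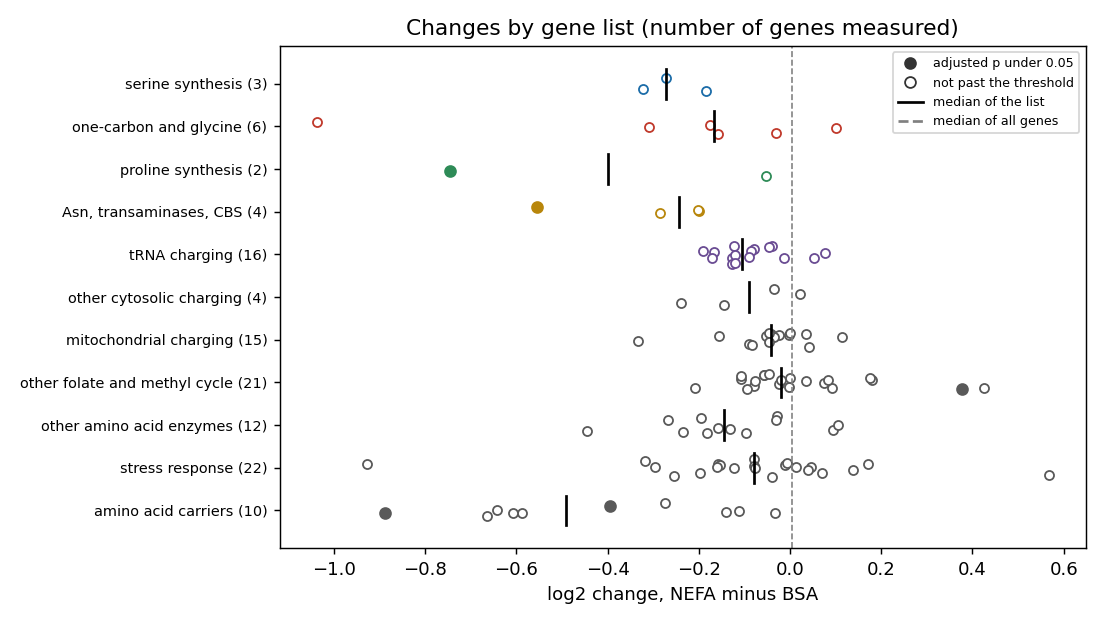
Log2 difference, NEFA minus BSA, of every measured gene in the 5 groups of the set and in 6 lists of related genes, with the list median as a black bar and the median of all genes as a dashed line; filled points passed the adjusted threshold, and points are spread vertically at random. PYCR1, CBS, SLC1A4 and SLC3A2 are the filled points to the left and MTR the one to the right.

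As facts of the whole series, array medians lay between 4.78 and 4.86, correlations between arrays over probe sets were 0.993 to 0.995 within groups and 0.991 to 0.993 between them, and 217 probe sets were higher and 278 lower with NEFA. With arrays centred on their medians, 155 were higher and 347 lower, so the lower share went from 56.2% to 69.1%; the same 2 genes of the set passed. Of 9 measured granulosa cell markers, CYP19A1, INHBA, FSHR and FOXL2 had levels at percentiles 84.3, 99.8, 82.4 and 85.7 of all probe sets, and 1 of the 9, GATM, rose by 0.36 (limma, adjusted p = 0.044). INHA and CYP11A1 stood at percentiles 97.3 and 99.7, while AMH and HSD17B1 stood lower, at 58.3 and 50.2. These percentiles are of probe set brightness and do not rank the amounts of RNA of different genes. HSD17B1, an oestradiol synthesis enzyme, had the difference furthest from 0 among the 9, from 5.21 ± 0.45 to 4.46 ± 0.17, and did not pass (limma, adjusted p = 0.12). At an unadjusted p under 0.05, 2 of the 9 were lower and 2 higher, beside 8.92% and 7.9% of all genes. At the adjusted threshold, 1.35% of all genes were lower and 0.999% higher. The mean log2 level of the 9 ran from 8.24 to 8.51 with BSA and from 8.30 to 8.49 with NEFA.

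Markers of other cells partly moved with the groups. For the counts below, 8.92% of all genes were lower and 7.9% higher at an unadjusted p under 0.05 in limma. At the adjusted threshold these shares were 1.35% and 0.999%. Values of any size were higher with NEFA for 9282 of all 18010 genes. Of 7 fibroblast and smooth muscle markers, DCN rose (9.77 ± 0.10 to 10.29 ± 0.14; limma, adjusted p = 0.020) and PDGFRA fell (8.76 ± 0.07 to 8.46 ± 0.06; limma, adjusted p = 0.042). Values were higher with NEFA for 5 of the 7, and 1 was lower and 4 higher at an unadjusted p under 0.05 in limma. LUM and COL1A2 were bright in both groups, at percentiles 99.9 and 98.1. The mean level of the 7 ran from 8.45 to 8.51 with BSA and from 8.55 to 8.78 with NEFA. Of 6 theca markers none passed (0 lower and 4 higher at an unadjusted p under 0.05 in limma), but all 6 had higher values with NEFA. Their mean level was 5.12 to 5.23 with BSA and 5.30 to 5.50 with NEFA, and the theca enzyme CYP17A1 was dim (3.11 ± 0.15 and 3.43 ± 0.26) while INSL3 was not (7.87 ± 0.13 and 8.09 ± 0.14). Of 6 endothelial markers VWF fell (5.26 ± 0.06 to 4.92 ± 0.11; limma, adjusted p = 0.039), with PECAM1 and KDR dim in both groups (at most 2.97 on average) and mean levels of 3.75 to 3.93 and 3.77 to 3.84. Among these 6, 1 was lower and 1 higher at an unadjusted p under 0.05 in limma. None of 8 leukocyte markers passed (0 lower and 1 higher at an unadjusted p under 0.05 in limma), PTPRC was dim (2.96 and 2.81), and mean levels were 3.30 to 3.44 and 3.37 to 3.60. The part of other cell types in the differences above was not tested.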

How the data were processed

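RNA of 8 cultures was hybridised to biotin-label expression arrays. The authors deposited log2 values, made with RMA per the submitters' processing notes; the sources used here give no software version, probe definition or genome build. RMA equalises the distributions of arrays, so a change shared by all transcripts cannot be seen, and differences of dim probe sets come out too small. Precision is limited by the number of arrays.

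Of 24415 probe sets, 18457 had 1 gene symbol, 688 several and 5270 none. Symbols were updated by gene ID through RefSeq (ARS-UCD2.0), which matched 17996. The brightest probe set stood for a gene. NEFA minus BSA was fitted on the whole table with limma 3.58.1 (lmFit, eBayes) in R 4.3.3, with Benjamini-Hochberg adjustment over all probe sets. The procedure was tested on simulated data.

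The genes, lists and tests were chosen with earlier results of these data known. Values on every array are given for genes that passed, the gene of each group that differed most, and ASNS, PHGDH, PSAT1, PSPH, MTHFD2 and SHMT2. From each related list up to 3 genes that passed, or else the one of smallest p, were named, with ATF4, DDIT3 and TRIB3 in any case; others are marked where they stand. Of the 97 listed related genes 84 were measured.

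The alternatives were a fit with the replicate block, further quantile normalization, array centring, a table without the dimmest 33.3% of probe sets, trend and robust options of eBayes, array weights, no moderation, averaging the probe sets of a gene, and each array left out in turn. A planned search of promoters was not run, as no promoter sequences were used here.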

Additional observations from a re-analysis of the deposited data

Results flagged for a closer look

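A single array stood apart from the other 3 of its group in 3 of 82 group checks by Dixon's test, where chance flags about 1 in 20. CARS1 read 7.45 on NEFA 1, with the next array at 7.56. RARS1 read 8.27 on BSA 2, with the next array at 8.10. GOT2 read 10.14 on BSA 1, where the other BSA arrays all read 10.21. None of these genes passed in limma with all arrays.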

How the results depend on the processing

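The signs of the 31 differences were the same in all alternatives except for LARS1, which was 0.007 after further quantile normalization, 0.015 without BSA 3 and 0.009 without NEFA 2 (-0.041 to 0.015 over single arrays left out). PYCR1 and CBS also passed with array weights, array centring, quantile normalization, the mean of probe sets and without the dimmest probe sets. The number of genes of the set that were lower was 4 without the dimmest probe sets (ALDH1L2 and GPT2 added), 6 with trend and robust eBayes (PSPH, MTHFD2, GPT2 and EPRS1 added), 0 without moderation and from 0 to 2 with single arrays left out; none was higher in any of the 16 alternatives. The median difference of the one-carbon group ran from -0.21 without NEFA 1 to -0.14 without NEFA 3. Of all probe sets, 534 were lower and 371 higher without the dimmest, 776 and 492 with trend and robust eBayes, and 97 to 160 and 86 to 153 with single arrays left out.

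Of the related lists, the carriers had 4 lower without the dimmest probe sets, 6 with trend and robust eBayes and 0 to 3 with single arrays left out (0 without NEFA 1, 3 without NEFA 2). The stress response list had 2 lower without the dimmest probe sets (ATF4 and CHAC1) and 3 with trend and robust eBayes (EIF2AK3 added). It had 1 higher, EIF2AK2, under both, with array weights, with quantile normalization and without NEFA 4 (0 to 1 over single arrays left out). The further amino acid enzymes had 1 lower without the dimmest probe sets, and 2 with trend and robust eBayes and without moderation, and the further cytosolic charging genes 1 under the last 2. The further folate list had 2 higher with array weights, quantile normalization, trend and robust eBayes or without the dimmest, 0 with array centring, and 0 to 1 with single arrays left out. The causes of these shifts were not tested. Where probe sets or arrays were left out, the fit also had fewer of them.

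Same-numbered arrays share a number, and the sources used here do not say whether they were paired. The correlations of their deviations from the group means were -0.06, 0.11, 0.06 and 0.11 for replicates 1, 2, 3 and 4. BSA 2, 3 and 4 each correlated best with the NEFA array of the same number, while BSA 1 correlated best with NEFA 4 (0.10). Such small correlations do not settle whether the arrays were paired. With the replicate block, 37 probe sets were lower and 52 higher, and the lists kept 1 lower carrier and 0 higher folate genes. In that fit 0 genes of the set passed, with PYCR1 at adjusted p = 0.088 and CBS at adjusted p = 0.11 in limma. The planned promoter motif count was not run. The 4 arrays a group limit what small differences can pass: the median SE over all genes was 0.08.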
